A study of Homo sapiens with 12 samples.

Results

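The 40 genes described here carry out homologous recombination and Fanconi repair, the pathways that mend broken and crosslinked DNA. They were taken by symbol from a list of pathway members, drawn up with earlier results of these data known, out of 60671 named genes in the table. Each symbol matched exactly 1 row, and all 40 passed the filter on low counts, together with 16994 genes in all. The cells were HCT116, an established human colorectal carcinoma line, recorded as wild type in the labels. Control cells stayed in full DMEM with 10% fetal bovine serum and antibiotics, whereas deprived cells were washed and given DMEM with the same serum and antibiotics but 0 mM cystine, the disulfide form of cysteine. Cells were collected after 24 h or 48 h, with 3 samples in each of the 4 groups: control 24 h, deprived 24 h, control 48 h and deprived 48 h. Only deprived cells are described as washed, so the medium change and the missing cystine cannot be told apart. The comparisons ask how these genes' transcripts differ when cystine is withheld.

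Homologous recombination copies an intact sister chromatid to repair a double-strand break. Nucleases first trim the ends to single strands, the BRCA proteins then load a recombinase onto them with the help of its paralogs, and helicases and nucleases resolve the joined molecules. The Fanconi pathway handles crosslinks between the strands: a core complex attaches ubiquitin to the FANCD2-FANCI clamp, which calls in the nucleases and the recombination proteins. Both work mainly in S and G2 phase, when a sister chromatid exists, and many of their genes are transcribed with the cell cycle.

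Depth ran from 19146108 to 24179533 estimated counts a sample. All 7 epithelial markers were present, with a summed level of 4048 to 5846 CPM (counts scaled to library size) over the 12 samples. Of 18 markers of fibroblasts, leukocytes and endothelial cells, COL1A1, CD68 and VWF exceeded 1 CPM in some sample, and the leukocyte marker PTPRC had 0 counts in every sample. Deprived 48 h replicate 1 had the highest value of its 3 samples for 26 of the 40 genes. For control 48 h replicate 1 that count was 17 of 40. The share over all genes was not computed. Deviations from the group mean went with gene length across genes in several samples. The correlation was 0.268 in deprived 48 h replicate 1 and -0.23 in deprived 48 h replicate 2. In control cells at 48 h it was 0.422 in replicate 1 and -0.312 in replicate 3. Nothing in the labels ties the samples of a group to separate cultures, and p-values rest on a spread among samples that could be technical.

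After 24 h without cystine, most of these genes that changed were higher. A gene is said to rise or fall where its adjusted p over all 16994 genes was under 0.05 by edgeR's quasi-likelihood test. By that rule 20 of 40 (50%) rose, against 28.8% of all genes tested, and 4 (10%) fell, against 26.9%. The median log2 fold change of the 40 genes was 0.28, beside -0.01 over all genes. Only EXO1, the exonuclease of long-range end trimming, rose by at least 2-fold, a size reached by 4.84% of all genes. None of the 40 fell that far, as 6.26% of all genes did.

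After 48 h the balance was the other way. Of the 40 genes 25 (62.5%) fell, against 34.9% of all genes, and 9 (22.5%) rose, against 33.5%. Their median was -0.51, beside -0.02 over all genes. At least 2-fold falls were seen in 11 genes (27.5%), against 15.3% of all genes, and RAD51D alone rose by as much, against 8.59%. The summed level of the 40 genes was 1107, 1092 and 1119.7 CPM in control cells at 24 h and 1345, 1342 and 1301 CPM in deprived cells. At 48 h it was 1034, 1057 and 1059 CPM in control cells and 844, 759.6 and 747 CPM in deprived cells. The deprived samples thus lay above every control sample at 24 h and below every one at 48 h. In bulk RNA, fewer cells that express a gene and less RNA per cell cannot be told apart.

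Set side by side, the calls at the times fell into a few classes. 8 genes rose at both times (PALB2, RAD51B, RAD51C, RAD51D, RAD50, NBN, RBBP8 and MUS81) and 4 fell at both (FANCG, FANCL, BRIP1 and RECQL4). 9 genes rose at 24 h and fell at 48 h (UBE2T, FANCI, BARD1, BRCA2, XRCC2, RAD51AP1, RMI1, EME1 and POLQ). BRCA1, MRE11 and EXO1 rose at 24 h and were not called at 48 h. 12 genes were not called at 24 h and fell at 48 h, FANCF was called only at 48 h, where it rose, and FANCE, FAAP24 and SLX4 were called at neither time. No gene fell at 24 h and rose at 48 h. The share of all genes tested in each of these classes was not computed, so their sizes cannot be set against it.

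**Figure D1:**
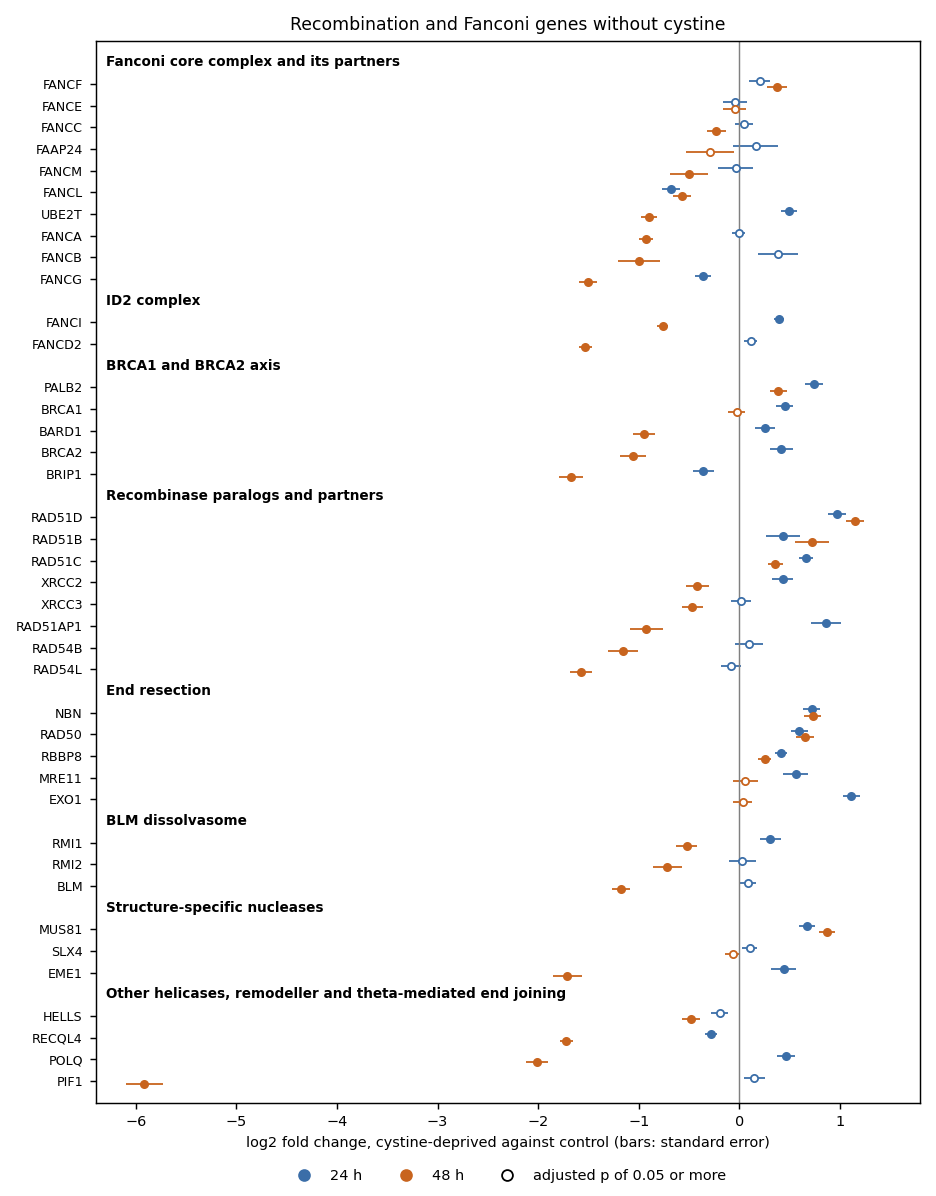
Log2 fold change of each of the 40 genes, deprived against control, at 24 h (blue) and 48 h (orange), grouped by role, with standard errors as bars. Filled points have an adjusted p under 0.05; PIF1 at 48 h lies far to the left at -5.91, and none of the 5 end resection genes plotted fell at either time.

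Transcripts of the Fanconi clamp, and of UBE2T and FANCL, which attach ubiquitin to it, were lower at 48 h. FANCD2 (chromosome 3, 10026414 to 10101930, GRCh38), the clamp subunit whose ubiquitination marks pathway activation, measured 52.3, 51.1 and 50.2 CPM in control cells and 19.5, 17.7 and 15.9 CPM in deprived cells at 48 h, a fall of 1.53 ± 0.07 on the log2 scale (SE, as for every log2 change given here). At 24 h FANCD2 was not called, at 0.11 ± 0.06. FANCI, its partner in the clamp, rose at 24 h by 0.39 ± 0.05, from 90.5 ± 3.17 to 119 ± 2.47 CPM (SD, n = 3). It then fell at 48 h, with 76.7, 78.7 and 77.8 CPM in control cells and 49.6, 44.6 and 43.3 CPM in deprived cells. The groups of either gene overlapped at neither time.

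UBE2T, the conjugating enzyme that hands ubiquitin to the clamp, followed the course of FANCI. At 24 h it measured 28.1, 30.1 and 27.9 CPM in control cells and 40.5, 38.8 and 42.0 CPM in deprived cells, a rise of 0.49 ± 0.08. By 48 h it measured 32.0, 39.4 and 35.3 CPM in control cells and 19.4, 17.3 and 20.5 CPM in deprived cells, a fall of 0.90 ± 0.08. FANCL, the ligase of the core complex, was instead lower at both times, by 0.68 ± 0.09 at 24 h and 0.57 ± 0.09 at 48 h, and went from 19.9 ± 1.67 to 13.4 ± 1.01 CPM at 48 h. FANCL shares up to 18.7% of its annotated exon bases with a gene on the other strand, VRK2 among those that overlap, and whether counting used strand is not stated. Thus the ligase and its enzyme partner were both lower at 48 h but had opposite directions at 24 h. USP1, which removes ubiquitin from the clamp, is not among the 40 genes and was singled out after its values were seen. USP1 rose by 1.43 ± 0.07 at 24 h and by 0.53 ± 0.07 at 48 h, from 39.5 to 56.8 CPM at 48 h.

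Among the scaffold subunits of the core complex, FANCG fell most. FANCG (chromosome 9, 35073835 to 35080016) measured 25.8, 28.8 and 27.8 CPM in control cells and 22.7, 20.9 and 20.6 CPM in deprived cells at 24 h, and 26.1, 31.9 and 29.5 CPM in control cells and 10.5, 9.74 and 10.7 CPM in deprived cells at 48 h. It fell by 0.36 ± 0.08 at 24 h, and at 48 h fell by 1.501 ± 0.09, with no overlap between groups at either time. FANCA, which binds FANCG, was not called at 24 h (-0.01 ± 0.06) and fell by 0.93 ± 0.07 at 48 h, with 46.1, 47.5 and 44.6 CPM in control cells and 22.8, 25.7 and 24.2 CPM in deprived cells. FANCA shares 23.6% of its exon bases with ZNF276 on the other strand.

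The other core subunits went both ways at 48 h. FANCB, of the catalytic module with FANCL, fell at 48 h by 1.00 ± 0.21, with 5.03, 3.79 and 4.91 CPM in control cells and 2.91, 1.76 and 2.19 CPM in deprived cells. FANCC fell by 0.23 ± 0.09, with 18.6, 22.9 and 17.4 CPM in control cells and 15.8, 17.5 and 17.1 CPM in deprived cells; its groups overlapped. The call of FANCC was lost in DESeq2 (-0.21), without a filter (-0.22) and in a fit of the 48 h samples alone (-0.21). It was also lost without control 48 h replicate 2 (-0.10) or deprived 48 h replicate 1 (-0.18) or 3 (-0.24). FANCM, the translocase that anchors the complex on DNA, fell by 0.50 ± 0.18, from 8.30 ± 1.37 to 5.86 ± 1.87 CPM. Its single values were 9.50, 6.81 and 8.58 CPM in control cells and 8.01, 4.73 and 4.83 CPM in deprived cells, so the groups overlapped. The call of FANCM was lost without control 48 h replicate 1 (-0.39) or 3 (-0.47), or without deprived 48 h replicate 2 (-0.36) or 3 (-0.37). Of the core genes in the set studied here, FANCF alone rose at 48 h, by 0.38 ± 0.10. It measured 8.44, 8.09 and 7.48 CPM in control cells and 10.1, 10.4 and 10.7 CPM in deprived cells. FANCF shares 11.3% of its exon bases with GAS2 on the other strand. FAAP100 and FAAP20, core subunits outside that set, were singled out after their values were seen. At 48 h FAAP100 rose by 0.36 ± 0.06, from 36.7 to 47.0 CPM. FAAP20 fell by 0.52 ± 0.08, from 38.7 to 27.0 CPM. FANCE, and FAAP24, the partner of FANCM, were not called, at -0.05 ± 0.12 and -0.29 ± 0.24 at 48 h. FAAP24 was measured at 36 to 93 counts per sample. With 1 sample left out its change at 48 h ranged from -0.51 to -0.02, so the missing call does not show that it was unchanged.

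The BRCA proteins, which act between end trimming and strand exchange, split at 48 h. BRCA1, a ubiquitin ligase that promotes end resection, measured 39.8, 38.6 and 43.8 CPM in control cells and 53.4, 56.4 and 57.0 CPM in deprived cells at 24 h, a rise of 0.45 ± 0.08. At 48 h it measured 36.2, 33.3 and 36.1 CPM in control cells and 39.4, 34.7 and 29.6 CPM in deprived cells and was not called (adjusted p = 0.814 by edgeR's quasi-likelihood test). BARD1, the obligate partner of BRCA1 in that ligase, fell at 48 h by 0.95 ± 0.11, with 15.4, 12.9 and 14.6 CPM in control cells and 7.66, 7.61 and 7.01 CPM in deprived cells. The groups of BRCA1 overlapped at 48 h, whereas every deprived sample of BARD1, 1.93-fold lower, lay below every control sample. The rise of BARD1 at 24 h (0.26 ± 0.10) was lost in 10 of 20 other settings. It was lost under upper-quartile scaling (0.19), with library totals (0.18), in DESeq2 (0.25), without a filter (0.25) and above 5 CPM (0.23). It was also lost without control 24 h replicate 1 (0.17) or 3 (0.27) and without deprived 24 h replicate 1 (0.23), 2 (0.27) or 3 (0.27).

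BRCA2, which loads the recombinase, rose at 24 h by 0.42 ± 0.12 and fell at 48 h by 1.05 ± 0.13. Its samples at 48 h measured 21.6, 15.4 and 18.7 CPM in control cells and 11.1, 7.84 and 7.83 CPM in deprived cells, with no overlap between groups. PALB2, the bridge between BRCA1 and BRCA2, was higher at both times. At 24 h it measured 14.0, 13.1 and 14.0 CPM in control cells and 22.4, 23.3 and 23.0 CPM in deprived cells, a rise of 0.74 ± 0.09, and at 48 h 12.9, 15.4 and 15.8 CPM in control cells and 20.8, 18.3 and 18.6 CPM in deprived cells, a rise of 0.39 ± 0.09. BRIP1, a helicase that binds BRCA1, was lower at both times, with 27.1, 25.9 and 28.0 CPM in control cells and 21.0, 21.998 and 20.3 CPM in deprived cells at 24 h. At 48 h BRIP1 measured 27.5, 26.4 and 24.9 CPM in control cells and 10.7, 7.38 and 6.65 CPM in deprived cells, a fall of 1.67 ± 0.12. The 5 genes of this axis thus included 1 higher, 3 lower and 1 not called at 48 h.

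The paralogs of the recombinase, which help it form filaments, also went both ways, and did so within their complexes. RAD51B, RAD51C, RAD51D and XRCC2 form one complex, and RAD51C and XRCC3 another. RAD51D (chromosome 17, 35092208 to 35121522) measured 11.4, 11.6 and 12.2 CPM in control cells and 23.2, 21.95 and 23.8 CPM in deprived cells at 24 h and 9.93, 10.5 and 10.1 CPM in control cells and 20.4, 22.3 and 25.05 CPM in deprived cells at 48 h. It rose 1.96-fold at 24 h and 2.22-fold at 48 h, the largest rise of the 40 genes at 48 h. RAD51D shares up to 8.01% of its exon bases with an overlapping gene, RAD51L3-RFFL among them.

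RAD51B, a low gene, measured 3.36, 5.13 and 5.02 CPM in control cells and 5.02, 6.48 and 6.64 CPM in deprived cells at 24 h, where the groups overlapped, and 4.73, 3.98 and 3.95 CPM in control cells and 7.17, 7.19 and 6.51 CPM in deprived cells at 48 h. Its rise at 24 h (0.43 ± 0.17) was lost in DESeq2 (0.43), under upper-quartile scaling (0.36) and in other settings, and without control 24 h replicate 1 (0.26) or deprived 24 h replicate 2 (0.38) or 3 (0.36). Its rise at 48 h, of 0.72 ± 0.17, was called in every setting tried. RAD51C rose by 0.66 ± 0.07 at 24 h and by 0.36 ± 0.08 at 48 h, from 22.5 ± 2.61 to 28.8 ± 1.34 CPM. XRCC2, the fourth member of that complex, rose at 24 h by 0.43 ± 0.11 but fell at 48 h by 0.42 ± 0.11, with 12.02, 12.1 and 11.7 CPM in control cells and 10.7, 7.89 and 8.20 CPM in deprived cells. XRCC3 fell at 48 h by 0.47 ± 0.10, with 17.2, 15.2 and 14.2 CPM in control cells and 11.8, 10.4 and 11.6 CPM in deprived cells. KLC1, on the other strand, covers 76.7% of the exon bases of XRCC3, so its counts are uncertain. At 48 h, therefore, the 3 paralogs named for the recombinase were higher and both XRCC paralogs were lower.

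The proteins that drive strand exchange beside the paralogs fell together at 48 h. RAD51AP1, which stimulates strand invasion, measured 12.7, 11.6 and 13.4 CPM in control cells and 23.3, 22.8 and 22.4 CPM in deprived cells at 24 h, a rise of 0.86 ± 0.15. RAD51AP1 then measured 8.95, 15.3 and 13.0 CPM in control cells and 8.14, 5.71 and 5.69 CPM in deprived cells at 48 h, a fall of 0.92 ± 0.16. RAD54L, a translocase that remodels the filament, fell by 1.58 ± 0.11 at 48 h, with 13.9, 16.1 and 15.3 CPM in control cells and 5.85, 4.55 and 4.74 CPM in deprived cells. RAD54B, its relative, measured 16.6, 14.9 and 13.9 CPM in control cells and 8.36, 7.47 and 4.51 CPM in deprived cells, a fall of 1.16 ± 0.15. The groups of these genes did not overlap at 48 h. RAD54L shares 25.1% of its exon bases with LRRC41 on the other strand and RAD54B 59.1% with FSBP on its own strand.

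**Figure D2:**
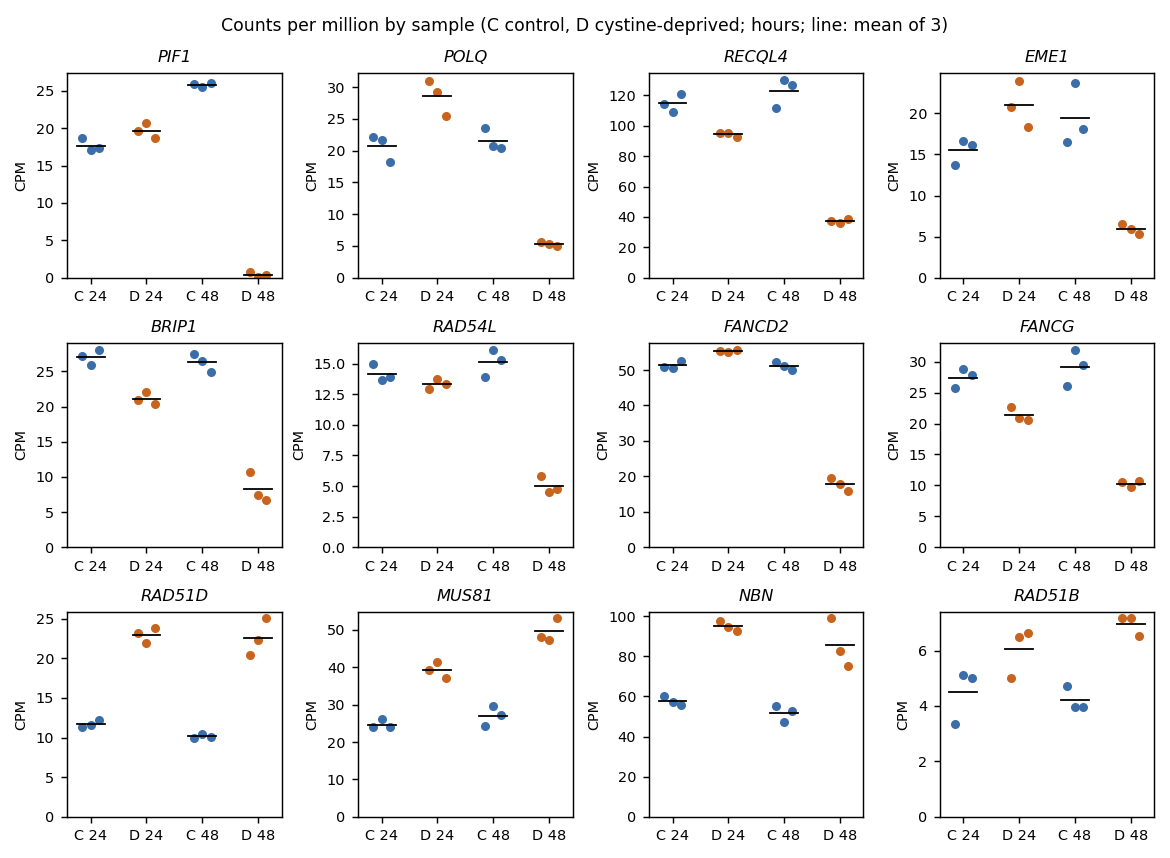
CPM in each sample for the 8 genes with the largest falls at 48 h (PIF1 to FANCG) and the 4 with the largest rises (RAD51D to RAD51B), in control (blue) and deprived (orange) cells; lines are means of 3. At 48 h the deprived points lie below all control points for the former and above them for the latter.

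The 5 genes of end resection, the first step, that are among the 40 all rose at 24 h, and at 48 h 3 of them rose and none fell. DNA2, another nuclease of long-range resection, is not among the 40 and was singled out after its values were seen: it was not called at 24 h (-0.12 ± 0.12) and fell at 48 h by 0.98 ± 0.13, from 10.4 to 5.26 CPM. NBN, of the MRE11-RAD50-NBN complex that senses and trims ends, measured 60.4, 57.0 and 55.6 CPM in control cells and 97.8, 94.4 and 92.5 CPM in deprived cells at 24 h. At 48 h NBN measured 55.0, 47.3 and 53.0 CPM in control cells and 99.3, 82.5 and 75.4 CPM in deprived cells, with rises of 0.72 ± 0.08 and 0.73 ± 0.08. RAD50, the bridging ATPase of the complex, rose by 0.60 ± 0.09 and 0.65 ± 0.09, from 32.7 ± 1.17 to 51.4 ± 4.23 CPM at 48 h. RAD50 shares up to 79.7% of its exon bases with an overlapping gene, AC116366.3 among them, so its reads may be split.

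MRE11, the nuclease of the complex, rose at 24 h by 0.56 ± 0.12, with 24.7, 21.7 and 19.9 CPM in control cells and 36.1, 31.1 and 30.8 CPM in deprived cells. MRE11 measured 25.01, 18.7 and 22.3 CPM in control cells and 28.0, 20.5 and 20.3 CPM in deprived cells at 48 h and was not called (0.06 ± 0.12). RBBP8, also known as CtIP, the cofactor that starts resection, rose by 0.41 ± 0.06 at 24 h and by 0.25 ± 0.06 at 48 h, from 59.9 ± 1.12 to 71.3 ± 6.90 CPM. EXO1 (chromosome 1, 241847967 to 241895148), which extends the trimmed stretch, had the largest rise of the 40 genes at 24 h. It measured 16.6, 16.3 and 17.2 CPM in control cells and 37.7, 35.9 and 34.9 CPM in deprived cells at 24 h, a 2.16-fold rise. At 48 h it measured 14.7, 13.0 and 13.4 CPM in control cells and 15.9, 13.9 and 12.2 CPM in deprived cells, with deprived values on both sides of the control values, and was not called (0.03 ± 0.09).

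Of the complex that untangles joined molecules, the helicase and both RMI subunits fell at 48 h, but its topoisomerase rose. That topoisomerase, TOP3A, is not among the 40 genes and was singled out after its values were seen. TOP3A rose by 0.73 ± 0.08 at 24 h and by 0.62 ± 0.08 at 48 h, from 30.2 to 46.5 CPM. BLM, the helicase, measured 21.8, 21.1 and 21.5 CPM in control cells and 10.5, 9.74 and 8.24 CPM in deprived cells, a fall of 1.18 ± 0.09. RMI1, which guides the topoisomerase of the complex, rose at 24 h by 0.31 ± 0.10 and fell at 48 h by 0.52 ± 0.11, with 18.4, 21.4 and 21.4 CPM in control cells and 16.9, 13.1 and 12.5 CPM in deprived cells. The rise of RMI1 was lost under upper-quartile scaling (0.24) and with library totals (0.24). It was also lost without control 24 h replicate 1 (0.25) or deprived 24 h replicate 2 (0.28). RMI2 measured 7.84, 9.78 and 9.50 CPM in control cells and 4.71, 5.89 and 5.92 CPM in deprived cells at 48 h, a fall of 0.71 ± 0.14.

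The alternative route cuts joined molecules with the MUS81-EME1 nuclease, and its subunits moved in opposite directions at 48 h. MUS81 (chromosome 11, 65857126 to 65867653), the catalytic subunit, measured 23.9, 26.1 and 23.9 CPM in control cells and 39.2, 41.3 and 37.0 CPM in deprived cells at 24 h and 24.3, 29.7 and 27.3 CPM in control cells and 48.1, 47.4 and 53.2 CPM in deprived cells at 48 h. Its rises were 0.67 ± 0.08 and 0.87 ± 0.08. EME1 (chromosome 17, 50373220 to 50381483), its partner in that nuclease, rose at 24 h by 0.44 ± 0.13, a call lost without deprived 24 h replicate 2 (0.34). At 48 h EME1 measured 16.5, 23.6 and 18.0 CPM in control cells and 6.56, 5.89 and 5.28 CPM in deprived cells, a fall of 1.71 ± 0.14. Thus the partner was 3.27-fold lower and the catalytic subunit 1.83-fold higher. EME1 shares 16.4% of its exon bases with LRRC59, and MUS81 up to 13.9% with a neighbour, both on the other strand. SLX4, the scaffold that holds the nucleases, was not called at either time, at 0.10 ± 0.07 and -0.07 ± 0.07.

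The largest falls were those of helicases and of DNA polymerase theta. PIF1 (chromosome 15, 64815632 to 64825668), a helicase that unwinds folded guanine-rich DNA and helps repair synthesis, measured 18.6, 17.1 and 17.3 CPM in control cells and 19.6, 20.7 and 18.7 CPM in deprived cells at 24 h and was not called. By 48 h PIF1 measured 25.9, 25.5 and 26.1 CPM in control cells and 0.704, 0.139 and 0.410 CPM in deprived cells. The deprived values rest on 16, 3 and 9 counts, and the fitted change was -5.91 ± 0.18 (adjusted p = 1.04e-15 by edgeR's quasi-likelihood test). Its size rests on single samples: PIF1 was at -6.515 without deprived 48 h replicate 1 and at -5.508 without deprived 48 h replicate 2. POLQ (chromosome 3, 121431427 to 121546641), the polymerase of theta-mediated end joining, a route used when recombination fails, measured 22.2, 21.7 and 18.3 CPM in control cells and 30.9, 29.3 and 25.5 CPM in deprived cells at 24 h, a rise of 0.46 ± 0.09. At 48 h POLQ measured 23.6, 20.8 and 20.4 CPM in control cells and 5.59, 5.38 and 5.05 CPM in deprived cells, a 4.03-fold fall. In both genes every deprived sample at 48 h lay far below every control sample.

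RECQL4, a helicase of replication and repair and the highest of the 40 in CPM in control cells, measured 115, 109 and 121 CPM in control cells and 95.4, 95.5 and 92.5 CPM in deprived cells at 24 h. By 48 h RECQL4 measured 112, 129.9 and 127 CPM in control cells and 37.4, 36.2 and 38.4 CPM in deprived cells, so it fell by 0.28 ± 0.06 and 1.72 ± 0.06. HELLS, a chromatin remodeller tied to DNA methylation, fell at 48 h by 0.48 ± 0.09, with 53.6, 45.4 and 59.2 CPM in control cells and 43.8, 34.5 and 34.8 CPM in deprived cells. At 24 h its change of -0.20 ± 0.09 was not called, but it was called without control 48 h replicate 2 (-0.19) or deprived 48 h replicate 1 (-0.19), and in 6 of the 8 other settings. HELLS also differed between control times, with a fall of 0.53 ± 0.09 from 24 h to 48 h.

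Levels can be set against each other only per length of gene, and the order is by CPM per kilobase. In control cells at 24 h UBE2T had 32.7 ± 1.38, RECQL4 30.1 ± 1.59, HELLS 24.2 ± 0.677, RBBP8 24.1 ± 0.845 and FANCI 21.4 ± 0.748 CPM per kilobase (SD, n = 3). Samples of HELLS and RBBP8 overlapped. The lowest were FANCB with 1.27 ± 0.164, FANCM with 1.39 ± 0.260 and BRCA2 with 1.74 ± 0.0940 CPM per kilobase. Samples of FANCM overlapped those of both other genes. In deprived cells at 48 h the order at the top was RBBP8 with 24.1 ± 2.33, UBE2T with 21.7 ± 1.86, MUS81 with 21.0 ± 1.35 and NBN with 18.6 ± 2.66. PIF1 was the lowest there, with 0.183 ± 0.124 CPM per kilobase. The samples of each of these top 4 genes overlapped those of its neighbours in that order.

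The difference between the deprivation effects at 48 h and 24 h was tested directly as an interaction. It was negative and past the threshold in 26 of 40 genes (65%), against 19.2% of all genes, and positive in 0, against 16.4%. DESeq2 gave 25 and 0. PIF1 (-6.06 ± 0.22), POLQ (-2.47 ± 0.14), EME1 (-2.15 ± 0.19) and RAD51AP1 (-1.78 ± 0.22) had the most negative differences. The highest of the 40 was that of RAD51B, at 0.29 ± 0.24, which was not called. RAD51D, MUS81, RAD50 and NBN, higher at both times, were not called either, at 0.18 ± 0.12, 0.20 ± 0.11, 0.06 ± 0.12 and 0.01 ± 0.11.

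Within control cells, from 24 h to 48 h, 2 genes rose (5%, against 12.7% of all genes) and 6 fell (15%, against 10.4%). The rises were those of PIF1 (0.54 ± 0.10) and UBE2T (0.31 ± 0.08). HELLS, RAD51C, EXO1, RBBP8, FANCA and FANCI were the genes that fell, by 0.53 ± 0.09 to 0.22 ± 0.06 on the log2 scale. Within deprived cells over the same interval 31 genes fell (77.5%, against 21.8%) and 2 rose (5%, against 20.7%). FANCF and MUS81 rose, by 0.35 ± 0.10 and 0.34 ± 0.07. This comparison shares its samples with those at 24 h and 48 h and is not independent of them. Of the genes that rose at both times against control, RAD51B, RAD51D, RAD50 and NBN were not called between deprived times, at 0.20 ± 0.16, -0.03 ± 0.08, 0.02 ± 0.08 and -0.15 ± 0.08.

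Other genes of the same pathways were counted from a list of 51. At 24 h 21 rose and 12 fell, with a median of 0.14, and at 48 h 18 rose and 20 fell, with a median of -0.05. Of all genes tested, 28.8% rose and 26.9% fell at 24 h, and 33.5% rose and 34.9% fell at 48 h. The 3 listed genes with the smallest adjusted p at 48 h all fell. RPA3, of the single-strand binding complex, fell by 1.30 ± 0.09 at 48 h, from 22.4 to 9.09 CPM. MAD2L2, a subunit of the shieldin and polymerase zeta complexes, fell by 0.88 ± 0.06 and ERCC1, a nuclease partner of crosslink repair, by 0.74 ± 0.05. End joining genes had 5 higher and 4 lower of 13 at 48 h (median 0.07), and mismatch repair genes 4 higher and 2 lower of 7 (median 0.62). Excision repair genes had 8 higher and 10 lower of 23 (median 0.02). NEIL3, a glycosylase, had their largest change and fell by 2.68 ± 0.13, from 19.1 to 2.96 CPM. These lists were not tested against the 40 genes.

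**Figure D3:**
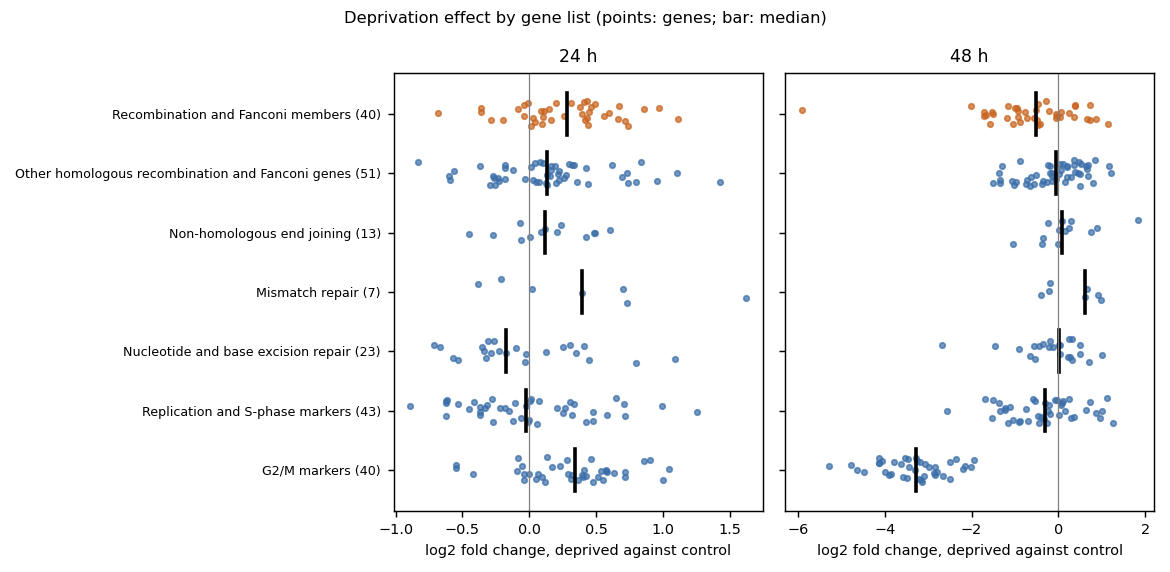
Log2 fold change, deprived against control, of every tested gene in 7 lists at 24 h (left) and 48 h (right), with the number of genes in parentheses and bars at the median. The median of the 40 genes is 0.28 at 24 h and -0.51 at 48 h, between those of the replication list (-0.03 and -0.31) and the G2/M list (0.34 and -3.27) at both times.

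Markers of the cell cycle moved at the same times. Of 40 G2/M markers 26 rose and 3 fell at 24 h, and all 40 fell at 48 h, with a median of -3.27. Their summed level lay at 5208 to 5276 CPM in control and 6156 to 6343 CPM in deprived cells at 24 h. At 48 h it was 5968 to 6197 CPM in control and 631.6 to 666.1 CPM in deprived cells. Of 43 replication and S-phase markers 14 rose and 17 fell at 24 h, and 10 rose and 24 fell at 48 h. Their summed level at 48 h was 2308 to 2590 CPM in control and 1674 to 1768 CPM in deprived cells. The part of these shifts in the falls of the repair genes was not tested. PIF1 was the one gene of the 40 whose fall at 48 h was larger than that of KIF20A, the G2/M marker with the smallest adjusted p, which fell by 5.29 ± 0.08.

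**Figure D4:**
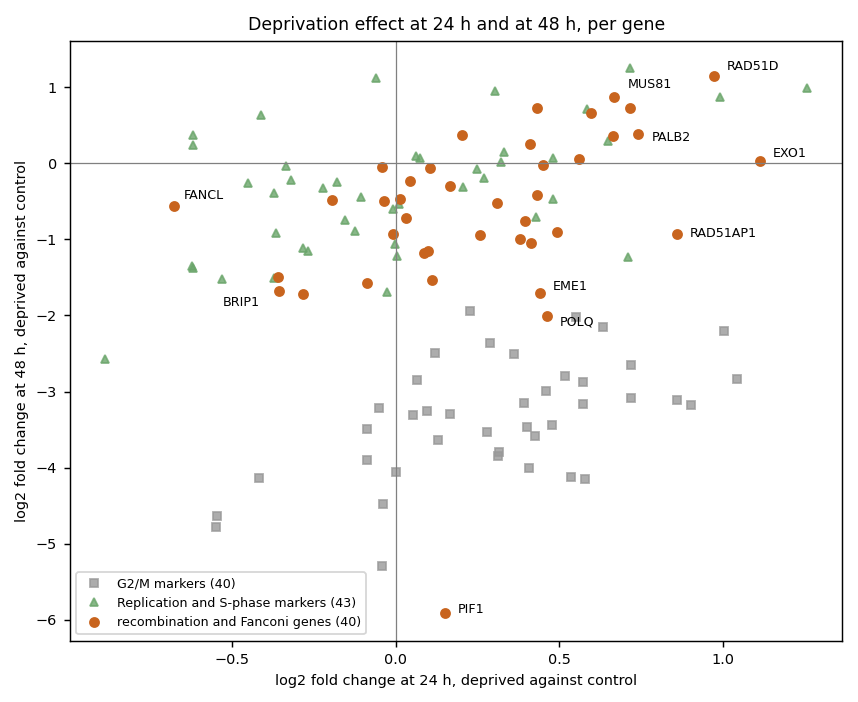
Log2 fold change at 24 h (horizontal) against that at 48 h (vertical), deprived against control, for the 40 genes (orange), 40 G2/M markers (grey) and 43 replication markers (green). PIF1, at -5.91, lies below KIF20A, the lowest G2/M marker at 48 h, at -5.29.

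Regulators of cell cycle transcription were measured beside these genes. FOXM1, the activator of G2/M genes, rose by 0.49 ± 0.05 at 24 h and fell by 2.48 ± 0.06 at 48 h, from 84.7 to 15.2 CPM. MYBL2, which works with it, fell by 0.90 ± 0.09 at 48 h. E2F2, an activating E2F factor, fell by 0.74 ± 0.12, but E2F1 rose by 0.35 ± 0.12, and E2F4, a repressive one, rose by 0.55 ± 0.06. E2F8, an atypical repressor, rose by 0.70 ± 0.11 at 24 h and fell by 1.24 ± 0.13 at 48 h. E2F7, its relative, rose by 1.38 ± 0.07 at 24 h and was not called at 48 h (0.07 ± 0.08). CDKN1A, the cyclin-dependent kinase inhibitor p21, rose by 1.32 ± 0.07 and 2.00 ± 0.07. In all, 13 of 22 such regulators rose and 3 fell at 24 h, and 11 rose and 7 fell at 48 h.

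Promoters of some of the 40 genes are shown, with letters read by cell cycle factors marked. Whether these letters bear on the changes was not tested. Over the whole window described next, CHR letters stood in 17.1% of matched members and 15.2% of matched genes that were tested. For CCAAT letters the shares were 48.6% and 43.0%, and for E2F letters 22.9% and 10.3%. Windows of 250 bases before to 50 bases after each start, from RefSeq on GRCh38.p14, matched 35 of the 40 genes. FANCI, NBN, RAD54B, RECQL4 and RMI2 were not matched. These letters were searched on both strands: TTCGCGC or TTGGCGC, read by E2F factors; TTTGAA or TTCGAA, the cell cycle genes homology region (CHR), read by the complex that represses and activates G2/M genes; and CCAAT, read by NF-Y. No motif contains another. Other forms read by E2F factors, such as TTCCCGC, were not searched and are not in capitals. The 6 genes printed are those with the largest change at 48 h among genes with a match. Each stretch runs 5′ to 3′ on the gene's strand, from 150 bases before the start through the first 30 transcribed bases, with matches in capitals.
PIF1 (chr15:64825618-64825797, minus strand): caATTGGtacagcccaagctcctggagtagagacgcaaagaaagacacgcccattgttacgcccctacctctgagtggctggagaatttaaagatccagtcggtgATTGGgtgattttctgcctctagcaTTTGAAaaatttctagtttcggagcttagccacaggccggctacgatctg
POLQ (chr3:121545959-121546138, minus strand): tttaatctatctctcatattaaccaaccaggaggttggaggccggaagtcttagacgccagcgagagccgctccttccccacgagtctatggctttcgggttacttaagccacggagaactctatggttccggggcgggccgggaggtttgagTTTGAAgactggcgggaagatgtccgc
EME1 (chr17:50373079-50373258, plus strand): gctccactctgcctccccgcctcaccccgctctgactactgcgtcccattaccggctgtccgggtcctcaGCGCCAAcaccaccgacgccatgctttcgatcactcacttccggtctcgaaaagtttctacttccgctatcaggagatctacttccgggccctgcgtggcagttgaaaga
BRIP1 (chr17:61863499-61863678, minus strand): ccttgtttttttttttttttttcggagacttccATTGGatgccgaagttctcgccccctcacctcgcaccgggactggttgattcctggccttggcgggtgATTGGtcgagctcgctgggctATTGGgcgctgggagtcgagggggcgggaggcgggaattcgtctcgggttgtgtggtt
RAD54L (chr1:46247538-46247717, plus strand): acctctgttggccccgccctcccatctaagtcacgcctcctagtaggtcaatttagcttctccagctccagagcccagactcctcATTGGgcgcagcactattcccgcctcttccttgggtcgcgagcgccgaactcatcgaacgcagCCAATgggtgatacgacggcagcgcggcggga
BLM (chr15:90717196-90717375, plus strand): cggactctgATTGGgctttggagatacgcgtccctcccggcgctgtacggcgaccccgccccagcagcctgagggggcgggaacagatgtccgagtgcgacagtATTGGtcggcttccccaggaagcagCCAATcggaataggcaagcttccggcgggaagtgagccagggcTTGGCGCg

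PIF1, with the largest fall, has CHR letters 20 bases before its start, and reverse CCAAT letters 45 and 148 bases before it. POLQ, with the next largest, has CHR letters from base 4 of the transcript on, and again 230 bases before the start, outside the printed stretch. EME1 has E2F letters of the searched forms 80 bases before its start, and BLM from base 23 on. BRIP1 has 3 CCAAT matches within 117 bases, RAD54L 2 near the first of its 2 listed starts, and BLM 3. Within 100 bases before to 50 bases after the start, PIF1 and POLQ were the 2 of 35 genes (5.71%) with CHR letters, against 7.37% of all windows of that length and 65.7% of 35 matched G2/M markers.

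Over the whole window, CHR letters stood in 5 of 21 matched genes that fell at 48 h (23.8%), 0 of 8 that rose and 1 of 6 not called. All promoter windows held them in 16.4%, G2/M markers in 71.4%. E2F letters stood in 6 of the 21 genes that fell (28.6%), 1 of the 8 that rose (12.5%) and 1 of the 6 not called. All windows held them in 5.06%, matched genes that were tested in 10.3% and replication markers in 44.4%. CCAAT letters stood in 11 of the 21 (52.4%), 3 of the 8 (37.5%) and 3 of the 6 not called, against 34.6% of all windows and 43.0% of matched genes that were tested. For CHR letters the share of matched genes that were tested was 15.2%. A match is a run of letters, not a site shown to be bound. RAD51D, with the largest rise, had no match, nor did FANCD2 and FANCG.

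**Figure D5:**
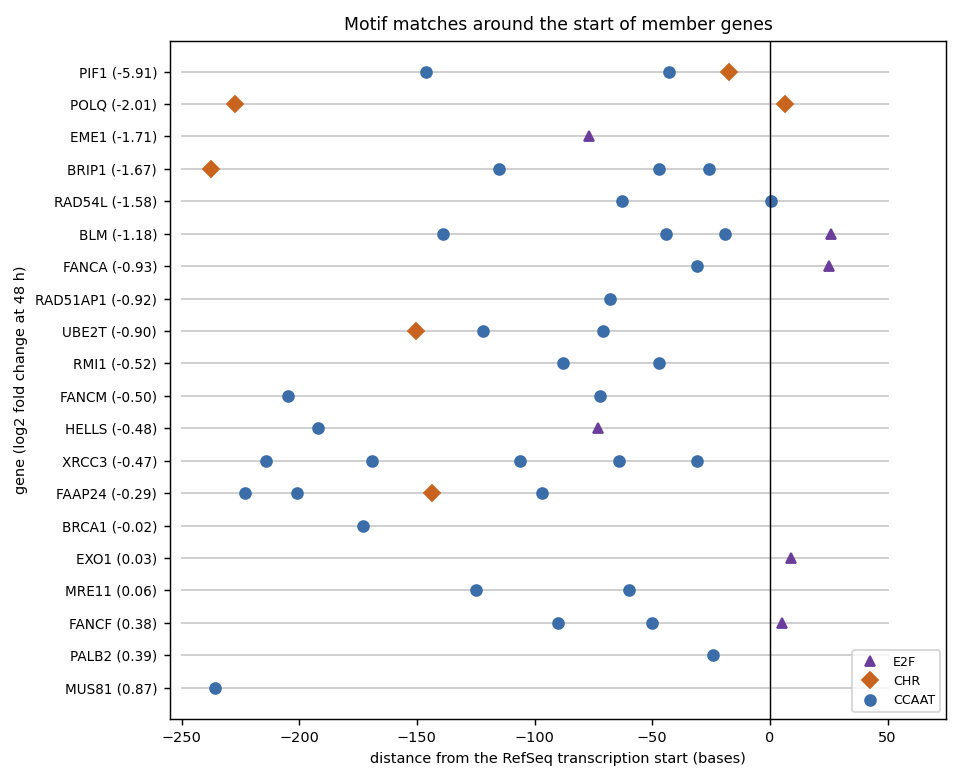
Positions of matches to the E2F (triangles), CHR (diamonds) and CCAAT (circles) letters relative to the RefSeq start, in bases, for genes with a match at their first listed start, ordered by log2 fold change at 48 h (in parentheses). PIF1 and POLQ, at the top, are the genes with a diamond within 50 bases of the start.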

How the data were processed

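RNA was sequenced from 12 samples of HCT116 cells. Per the submitters' processing notes, fastp, HISAT, RSEM and GRCh38 were used. The authors deposited 1 table of RSEM estimated counts per gene, not normalized, with a gene length column. Their versions, annotation release and strand setting are not given in the sources used here. Estimated counts were rounded to whole numbers, and 316 of 60987 rows without a gene name were left out (0.748% to 1.65% of counts per sample). Genes were kept by edgeR's filterByExpr (minimum count 10, minimum total 15), which left 16994. Counts were scaled by TMM and fitted with edgeR 4.0.16 in R 4.3.3 by the quasi-likelihood test, with all 4 groups in 1 model and no covariate. P-values were two-sided and adjusted by Benjamini-Hochberg over all genes tested, with a threshold of 0.05. CPM used TMM-scaled totals, and per-kilobase levels used the deposited length.

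The members and lists were chosen with earlier results of these data known. All 40 members were named; of other lists, the 3 genes with the smallest adjusted p at 48 h could be named, and cell cycle regulators. Alternatives were RLE, upper-quartile and total-count scaling, DESeq2 1.42.0, other filters, a replicate block, fits of the compared groups alone, and each sample left out in turn. Coordinates and exon overlaps are from GENCODE 29 and promoters from RefSeq.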

Additional observations from a re-analysis of the deposited data

Results flagged for a closer look

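The effect of deprivation differed between 48 h and 24 h in 26 of the 40 genes, by the interaction term of edgeR's quasi-likelihood test with Benjamini-Hochberg adjustment. All values are log2 fold changes at 48 h minus those at 24 h, and all are negative. Among Fanconi genes they were FANCD2 -1.64, UBE2T -1.39, FANCB -1.38, FANCI -1.16, FANCG -1.14 and FANCA -0.92. In the BRCA axis they were BRCA2 -1.47, BRIP1 -1.315, BARD1 -1.20, BRCA1 -0.47 and PALB2 -0.35.

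Among recombinase paralogs and partners the differences were RAD51AP1 -1.78, RAD54L -1.49, RAD54B -1.26, XRCC2 -0.85, XRCC3 -0.48 and RAD51C -0.31. Resection genes gave EXO1 -1.08 and MRE11 -0.50. The dissolution complex gave BLM -1.26, RMI1 -0.83 and RMI2 -0.74. The remaining genes were PIF1 -6.06, POLQ -2.47, EME1 -2.15 and RECQL4 -1.435. Over 19 other settings the call was lost in 10 for PALB2 (-0.44 to -0.30), 11 for RAD51C (-0.39 to -0.22) and 8 for MRE11 (-0.67 to -0.39), so these calls are not firm. XRCC3 was not called without deprived 24 h replicate 3 (-0.37).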

How the results depend on the processing

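The counts of genes called kept within 1.5 times of those reported in every setting, except those higher between control times, which ranged from 1 to 3 with 1 sample left out (1 without control 48 h replicate 2). With 1 sample left out, 16 to 20 genes were higher at 24 h and 23 to 25 lower at 48 h, and 9 were higher at 48 h throughout. Replicate numbers were not used as pairs in the main fit. Deviations of same-numbered control and deprived samples correlated at 0.0328, -0.11 and 0.162 at 24 h. At 48 h they correlated at 0.358, 0.246 and -0.042. These values neither show nor exclude pairing. With the replicate block 20 genes were higher and 5 lower at 24 h, 9 higher and 25 lower at 48 h, and 26 had a negative interaction.

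Signs turned only for genes that were not called. At 24 h FANCC, XRCC3 and RMI2 were at -0.0278, -0.0570 and -0.0393 under upper-quartile scaling and at -0.0317, -0.0609 and -0.0426 with library totals, and XRCC3 was at -0.00901 above 5 CPM. At 48 h EXO1 was at -0.0239 under upper-quartile scaling and -0.0004746 above 5 CPM. With 1 sample left out, values at 24 h ranged from -0.0535 to 0.0356 for FANCA, -0.115 to 0.0201 for FANCE, -0.153 to 0.114 for FANCM, -0.0980 to 0.0738 for XRCC3 and -0.0566 to 0.173 for RMI2. At 48 h they ranged from -0.181 to 0.0483 for FANCE, -0.126 to 0.0794 for BRCA1, -0.109 to 0.162 for MRE11 and -0.0645 to 0.127 for EXO1. The cause was not tested. The filter of 5 CPM left 38 of the 40 genes.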
